A study of Arabidopsis thaliana with 6 samples.

Results

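Young miRNAs of Arabidopsis thaliana were examined as one set, the families from miR401 to miR999. The 10 families miR403, miR408, miR472, miR825, miR827, miR828, miR838, miR845, miR857 and miR858 were left aside. The set was chosen by name alone, and it took 209 of the 679 intervals for which the authors deposited counts: 105 mature strands and 104 star strands of 69 families, out of 193 families in all. Where intervals had identical counts in every library they were counted once, which gave 181 members, against 538 for the whole list. Intervals at 0 in every library were counted by name (taken as 1 interval, the set holds 80 members).

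The data are read counts from small RNA libraries of 10-day-old Col-0 seedlings. There are 6 groups with 1 library each: the mutant parg1-1 with 100 nM flg22, parg1-1 untreated, the mutant parp1parp2 with 100 nM flg22, parp1parp2 untreated, wild type (WT) with 100 nM flg22, and WT untreated. flg22 is a fragment of flagellin, the protein of bacterial flagella, and is recognised by the plant receptor FLS2. Before the peptide was given, seedlings spent a day in water instead of on agar. How long it was left on and how many seedlings were pooled is not given here. PARG enzymes remove chains of ADP-ribose from proteins and PARP enzymes attach them. The counts cover miRNAs and TAS loci only, so the mutated genes themselves could not be checked. The study's title concerns DAWDLE, a protein of miRNA biogenesis, in immunity.

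A plant miRNA is cut from the stem of a folded transcript as a duplex, of which one strand, the mature miRNA, is loaded into an ARGONAUTE protein and guides it to matching transcripts. The other strand, the star, is usually discarded. Old families such as miR156 or miR166 are shared by most land plants, stand at several loci and regulate conserved transcription factors. Young families are found in one species or its close relatives. They usually stand at a single locus, are weakly expressed, and are thought to arise often and to be lost often, so that few have a target with an established role. Those with one include miR824 (the MADS-box factor AGL16), miR823 (the DNA methyltransferase CMT3) and miR447 (transcripts related to 2-phosphoglycerate kinase).

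The sequences below carry the results that follow. They are written 5′ to 3′ in lower case with the seed, bases 2 to 8, in capitals. They were read from the TAIR10.1 reference genome of RefSeq at the deposited intervals, on the annotated strand. The first pair are the mature strands with most counts, miR822 (chr5:897287-897307, minus strand, in an intron of AT5G03553 on the opposite strand) and miR846 (chr1:22577662-22577682, plus strand, outside protein-coding genes). The next pair are the strands of the miR824 hairpin, whose mature strand (chr4:12625128-12625148, plus strand) lies opposite a coding exon of AT4G24413 and whose star (chr4:12625721-12625741, plus strand) lies outside protein-coding genes. The miR447a.2-3p and miR447a-3p pair lies on the arm of a single hairpin (chr4:1528148-1528168 and chr4:1528190-1528211, minus strand), and the sequence of miR447a-3p stands also at miR447b (chr4:1535482-1535503, minus strand). miR866-3p (chr5:16157838-16157857, minus strand, outside protein-coding genes) was the member that passed a test between genotypes. miR853-star (chr3:8346589-8346609, plus strand, in an intron of AT3G23325 on the same strand) is a star strand that outnumbered its mature partner.
miR822: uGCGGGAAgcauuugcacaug
miR846: uUGAAUUGaagugcuugaauu
miR824: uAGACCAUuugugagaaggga
miR824-star: cCUUCUCAucgauggucuaga
miR447a.2-3p: uAUGGAAGaaauuguaguauu
miR447a-3p: uUGGGGACgagauguuuuguug
miR866-3p: aCAAAAUCcgucuuugaaga
miR853-star: uCUGCAACcggaaaggggagc
Each seed printed here differs from the others, and the 30 members that later entered the tests had 30 distinct seeds.

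Library totals ran from 247508 to 408805 counts over all intervals, and the upper limit for a library with a count of 0 (3 counts) was 7.34 to 12.1 CPM, where CPM scales each library to the same sum. These totals count a sequence at each of its loci. With identical intervals counted once they were 119791 to 187713. CPM here rest on the larger totals, and on the smaller ones the values and the limit would be higher. PCR copies cannot be told from molecules here, so confidence intervals and limits take in counting error alone. Libraries were compared in pairs by chi-square over degrees of freedom, where sampling noise gives about 1. The values ran from 15.2 to 78.1, so no library was a second copy of another. Those above 50 all involved parg1-1 with flg22, which gave 75.1 against untreated WT and 78.1 against WT with flg22.

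About as many members were at 0 as were seen. By distinct sequence 89 of 177 (50.3%) had at least 1 count in some library, 65 of 97 mature strands (67.0%) and 24 of 80 star strands (30.0%). By interval it was 107 of 209 (51.2%). Merging intervals by their counts gives 79 of 181 (43.6%), a lower share, because sequences that differ but hold the same 1 or 2 counts are joined while those at 0 are not. Of families up to miR400, which include the old ones, 57 of 59 mature sequences had a count (96.6%), and of families from miR1000 on 65 of 102 (63.7%). The median detected sequence of the set had 12 counts over the 6 libraries, against 117 in families up to miR400 and 3 in those from miR1000 on. Only 4 sequences reached 1000 counts, 43 had fewer but at least 10, and 42 had between 1 and 9.

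**Figure D1:**
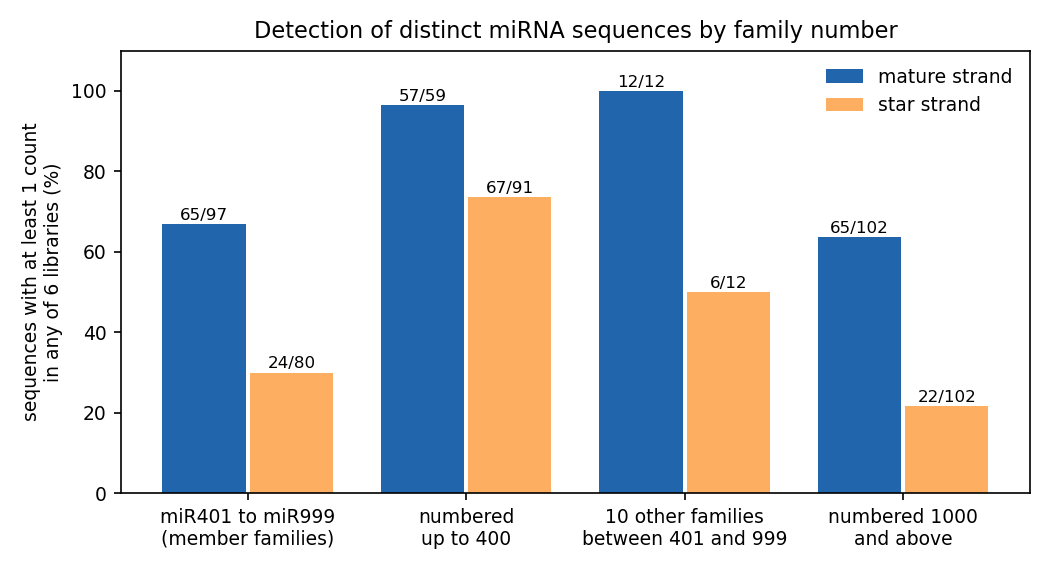
Share of distinct miRNA sequences with at least 1 count in any of the 6 libraries (percent, vertical axis) for 4 classes of family number, with mature strands in blue and star strands in orange; the numbers give sequences detected over sequences listed. Mature strands of miR401 to miR999 reached 67.0%, those of families up to miR400 reached 96.6%, and those from miR1000 on 63.7%.

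Of the 102 intervals without a count, 49 belonged to families at 0 throughout and 53 to families that were detected, 42 of these being star strands. In 20 of the 69 families every interval was at 0 in all 6 libraries, among them miR401, miR406, miR407 and miR413 to miR420. These belong to a list of 14 families that were named early from cloning or prediction, of which only miR404 and miR405 had a count, 1 each. The transposon-derived families miR854 and miR855 had 0 counts at all 6 of their mature intervals. At these depths such members are below 12.1 CPM in each library, on the totals over all intervals. That is a limit of detection and not a proof of absence.

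The first base, which the rule did not use, was as follows by distinct sequence. Uracil, the 5′ base of most miRNAs loaded into ARGONAUTE1, opened 51 of 65 detected mature strands (78.5%) and 19 of 32 undetected ones (59.4%). Guanine opened 1 of the 65 and 4 of the 32. In families up to miR400 uracil opened 81.4% of the 59 mature sequences. A length of 21 bases was the most common in both classes, with 47 of 65 detected strands and 27 of 32 undetected ones. These shares describe the sequences listed, whose families resemble one another, and were not tested.

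The set was a small part of each library. With identical intervals counted once, the members took 1.49% of counts in parg1-1 with flg22, 1.72% in parg1-1 untreated, 1.55% in parp1parp2 with flg22, 1.48% in parp1parp2 untreated, 1.58% in WT with flg22 and 1.86% in WT untreated. The flg22 library of a genotype had the lower share in parg1-1 and WT, and the higher in parp1parp2. Between 57 and 69 of the member sequences were detected in a library, 37 were detected in all 6 and 15 in a single one. The 5 most abundant members, miR822, miR846, miR824, miR824-star and miR447a.2-3p, held 70.7% of the 14656 counts of the set.

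Levels are given below as scaled CPM, that is CPM after TMM scaling. Tests used edgeR's quasi-likelihood test with an additive model of genotype and treatment, in which each genotype is compared over its flg22 and untreated libraries together. Of the members, 30 of 181 (16.6%) had at least 10 counts in at least 2 libraries and entered the fit of 187 intervals, 24 mature and 6 star strands of 23 families. The other 59 detected sequences had between 1 and 33 counts in all, with a median of 4. No group has a replicate, so a p-value here reflects how libraries differ from the additive model, technical differences included. A call is an adjusted p (Benjamini-Hochberg) under 0.05. An order of libraries, such as a genotype highest or apart from the others, is a description. Its share over all intervals was not counted. Whole seedlings were used, so fewer cells that make a miRNA and less of it per cell cannot be told apart.

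miR822, which is cut by DCL4 rather than DCL1 and targets transcripts of DC1-domain proteins, was the most abundant member. It had 1341 scaled CPM in parg1-1 with flg22 and 1834 in parg1-1 untreated, 1773.5 in parp1parp2 with flg22 and 1589 in parp1parp2 untreated, and 1927 in WT with flg22 and 2740 in WT untreated. All 4 mutant libraries lay below both WT libraries. The fitted log2 fold change against WT was -0.55 ± 0.29 (SE) in parg1-1 and -0.44 ± 0.29 in parp1parp2, and neither passed (edgeR adjusted p = 0.310 and 0.972). Its star strand had 134.4 to 200.8 scaled CPM, with log2 fold changes of 0.01 ± 0.30 in parg1-1 and -0.28 ± 0.31 in parp1parp2. The other DCL4-dependent member tested, miR869.2, had 32.4 to 74.0 scaled CPM and no call. On the same arm of its hairpin, with bases in common, miR869.1 had 2 counts in all against 117 for miR869.2.

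miR846 and miR842 both target transcripts of jacalin-related lectins, a family that includes proteins linked to defence. They come from 1 locus on chromosome 1, within 489 bases, and are known as products of a shared primary transcript. miR846 had 1943.5 scaled CPM in parg1-1 with flg22 and 2189 in parg1-1 untreated, 1648 in parp1parp2 with flg22 and 1255 in parp1parp2 untreated, and 1569 in WT with flg22 and 2286 in WT untreated. The genotypes overlapped, and log2 fold changes against WT were 0.11 ± 0.30 in parg1-1 and -0.39 ± 0.31 in parp1parp2 (edgeR adjusted p = 0.9503 and 0.972). miR842 was far scarcer, with 55 counts over the 6 libraries against 3442 for miR846, and 17.2 to 41.4 scaled CPM. miR846-star had 133 scaled CPM in parg1-1 with flg22 and 107 in parg1-1 untreated, 56.7 in parp1parp2 with flg22 and 48.3 in parp1parp2 untreated, and 74.5 in WT with flg22 and 74.0 in WT untreated. Its libraries did not overlap between genotypes, with parg1-1 highest and parp1parp2 lowest, but no difference passed: the log2 fold change of parp1parp2 against parg1-1 was -1.18 ± 0.34 (edgeR adjusted p = 0.113).

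miR447a carries a pair of miRNAs on the same arm of its hairpin, but miR447b has the sequence of miR447a-3p and the same 422 counts, so the counts of miR447a-3p cannot be assigned to either locus. miR447a.2-3p had 327.5 scaled CPM in parg1-1 with flg22 and 459 in parg1-1 untreated, 372.5 in parp1parp2 with flg22 and 224 in parp1parp2 untreated, and 312 in WT with flg22 and 412 in WT untreated. miR447a-3p had 318 scaled CPM in parg1-1 with flg22 and 293 in parg1-1 untreated, 170.1 in parp1parp2 with flg22 and 152 in parp1parp2 untreated, and 195 in WT with flg22 and 187 in WT untreated. Both parg1-1 libraries were above the other 4 for miR447a-3p, whereas the genotypes overlapped for miR447a.2-3p. Fitted log2 fold changes of parg1-1 against WT were 0.68 ± 0.28 for miR447a-3p and 0.12 ± 0.35 for miR447a.2-3p, and neither passed (edgeR adjusted p = 0.218 and 0.9503). In single libraries the log2 ratio of parg1-1 to WT for miR447a-3p was 0.71 with flg22 (95% interval 0.28 to 1.15) and 0.65 untreated (0.15 to 1.16), intervals that cover counting error only. miR775, which targets a galactosyltransferase, had 269 to 331 scaled CPM over the 6 libraries.

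**Figure D2:**
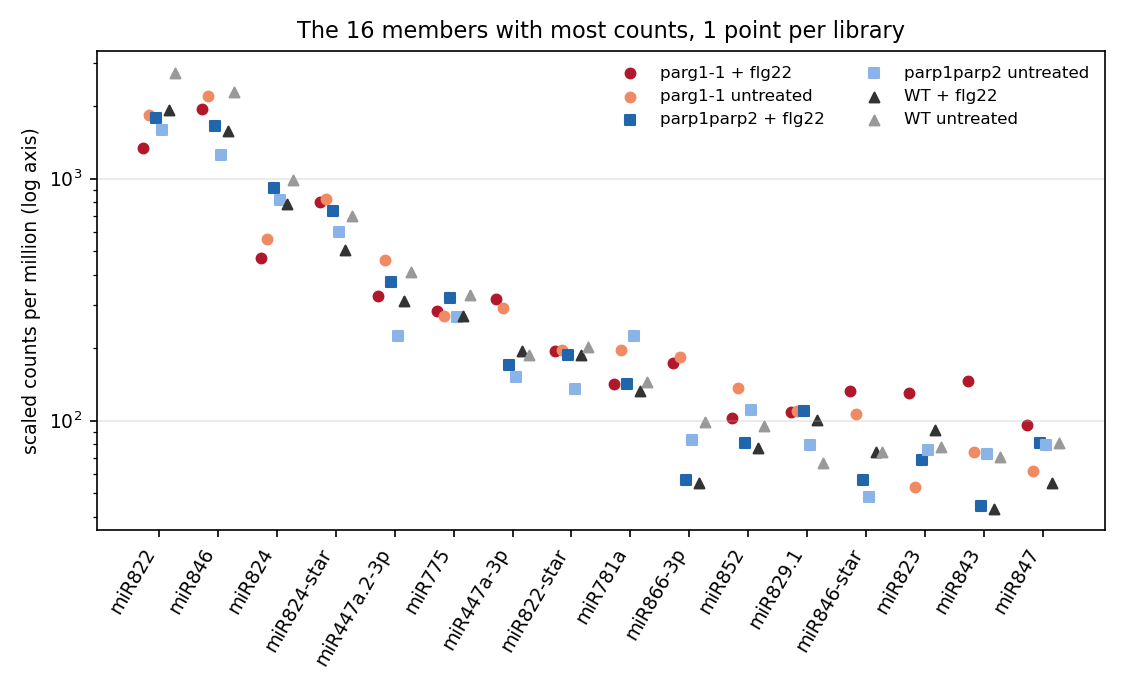
Scaled CPM (vertical log axis) of the 16 members with most counts, 1 point per library, with parg1-1 in red and orange circles, parp1parp2 in blue squares and WT in grey triangles. miR822 and miR846 stand above 1000 in every library, miR824 and miR824-star follow, and for miR866-3p both parg1-1 points lie above the other 4.

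miR866-3p was the 1 member of 30 called between genotypes. It is 20 bases long and opens with adenine, and no target is given in the annotation used here. The libraries held 56 counts in parg1-1 with flg22 and 62 in parg1-1 untreated, 14 in parp1parp2 with flg22 and 24 in parp1parp2 untreated, and 23 in WT with flg22 and 28 in WT untreated. In scaled CPM these are 173.0 and 183 in parg1-1, 56.7 and 82.7 in parp1parp2, and 55.3 and 98.6 in WT, each with flg22 and untreated in turn. Both parg1-1 libraries were above the other 4, while parp1parp2 and WT overlapped. The rest of the hairpin was nearly silent, with 10 counts for miR866-3p-star and 0 for miR866-5p over the 6 libraries. Among others, miR837-3p, miR829.2, miR853-star, miR779.2-star and miR840-star also had both parg1-1 libraries highest, so that order is not particular to miR866-3p.

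Against WT, miR866-3p rose in parg1-1 by a log2 fold change of 1.26 ± 0.33 (edgeR adjusted p = 0.0383). The share of members called, 1 of 30 (3.33%), can be read against 10.7% of all 187 intervals called in this comparison, 2.14% higher and 8.56% lower in parg1-1. At an unadjusted p under 0.05 there were 3 members, against 20.9% of all intervals. With identical intervals counted once the call remained 1, against 8.82%. With flg22 the single-library log2 ratio of parg1-1 to WT was 1.65 (95% interval 0.92 to 2.41), and miR866-3p was the only member apart in that pair (2-fold or more, 50 counts or more in one library, and an interval clear of 0), where 9.63% of all intervals were. miR843 had a larger ratio there, 1.75 (0.94 to 2.62), on 47 counts against 18, under that minimum of counts. For the untreated pair the ratio was 0.90 (0.23 to 1.59) for miR866-3p and 0.07 (-0.84 to 1.00) for miR843. No member was apart there, against 4.81% of all intervals. Nor was one in the other pairs, where 1.07% (parg1-1 with flg22 against untreated), 3.74% (the same pair of parp1parp2 and of WT) and 4.28% (parp1parp2 against WT, with flg22 and untreated) of all intervals were. The call did not hold in DESeq2 (adjusted p = 0.306), where 0 members and 6.42% of all intervals were called, and was lost on leaving out any single library of WT or parg1-1 or the parp1parp2 library with flg22, with log2 fold changes between 1.05 and 1.57 and adjusted p between 0.112 and 0.766. In particular it was 1.05 (adjusted p = 0.766) without parg1-1 with flg22, the library that stands apart.

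No other member passed for parg1-1 against WT. The 30 log2 fold changes had a median of 0.22, against 0.01 over the 187 intervals, with 23 of 30 above 0, against 94 of 187. That median was 0.45 without parg1-1 with flg22, 0.37 without untreated WT, and 0.062 for the 10 members with at least 50 counts in 2 libraries. Over all intervals the median was -0.00078, -0.013 and -0.039 in these fits. With identical intervals counted once it was 0.23 for the members, against 0.044 over 136 intervals. There 23 of 30 members were above 0, against 74 of 136 intervals. Some members are strands of the same hairpin, so the 30 values are not independent. miR843 had 145 scaled CPM in parg1-1 with flg22, 74.0 in parg1-1 untreated, 44.5 in parp1parp2 with flg22, 72.4 in parp1parp2 untreated, 43.2 in WT with flg22 and 70.4 in WT untreated. Only the flg22 library of parg1-1 stood out, and the log2 fold change of 0.97 ± 0.45 did not pass (edgeR adjusted p = 0.251). miR823, whose target CMT3 methylates cytosines outside CG sites, had 129.8 scaled CPM in parg1-1 with flg22 and 53.3 in parg1-1 untreated, 68.8 in parp1parp2 with flg22 and 75.8 in parp1parp2 untreated, and 91.3 in WT with flg22 and 77.5 in WT untreated. The highest and the lowest of these are both parg1-1 libraries, and the fitted change was 0.07 ± 0.39 (edgeR adjusted p = 0.960). It was the only tested member of the families linked to chromatin, of which 4 of 6 mature strands were detected.

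**Figure D3:**
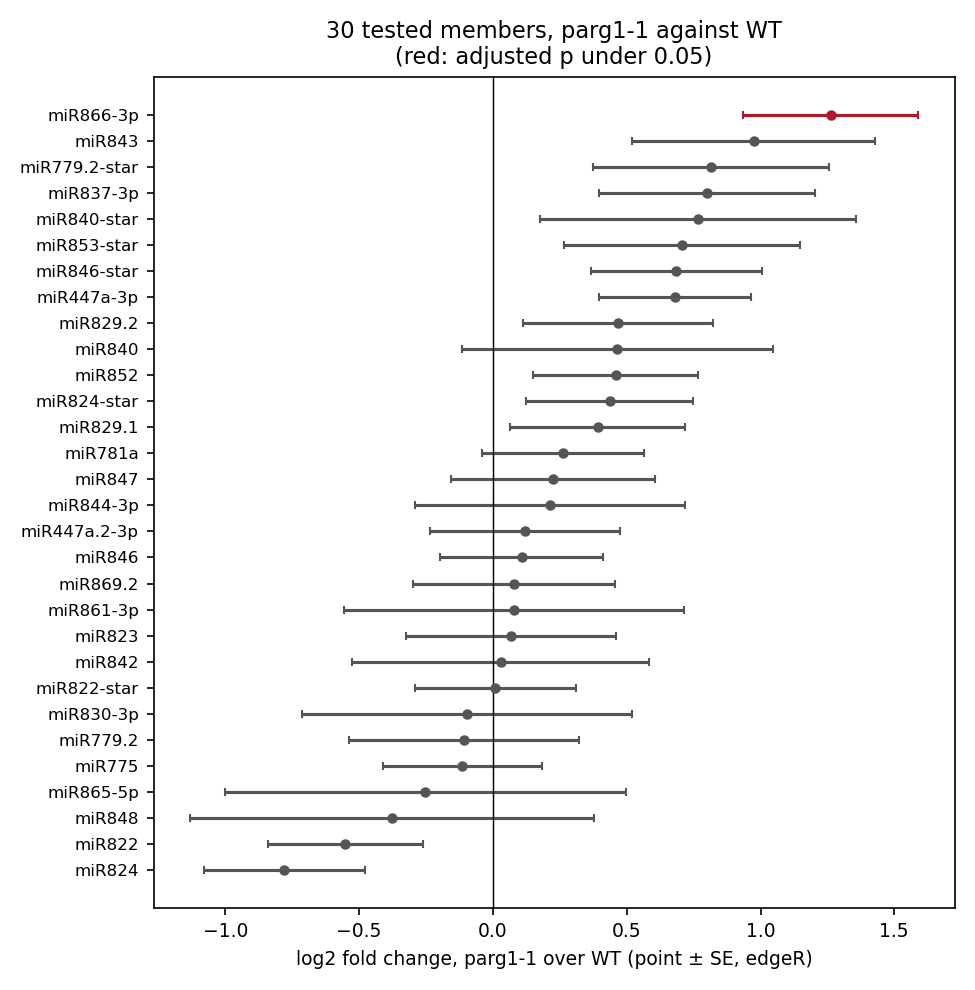
Log2 fold change of parg1-1 over WT (horizontal axis, point ± SE of the edgeR fit) for the 30 tested members, ordered by value, with the 1 member called in red. miR866-3p is highest at 1.26, miR824 lowest at -0.78, and 23 of 30 points lie above 0.

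The lowest of the 30 was miR824, whose target AGL16 acts in stomatal development and flowering time. It had 470 scaled CPM in parg1-1 with flg22 and 562 in parg1-1 untreated, 915 in parp1parp2 with flg22 and 814 in parp1parp2 untreated, and 788 in WT with flg22 and 986 in WT untreated. Both parg1-1 libraries were below the other 4, and parp1parp2 overlapped WT. The log2 fold change of parg1-1 was -0.78 ± 0.30 and missed the threshold (edgeR adjusted p = 0.174). Without the untreated parp1parp2 library miR824 had -0.78 as well, and its call changed in a fit that called more of all intervals. Its star strand had 803 scaled CPM in parg1-1 with flg22 and 822.5 in parg1-1 untreated, 733 in parp1parp2 with flg22 and 600 in parp1parp2 untreated, and 507 in WT with flg22 and 701 in WT untreated. For the star both parg1-1 libraries were the highest, with a log2 fold change of 0.44 ± 0.31 (edgeR adjusted p = 0.482).

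Strand use within a hairpin compares counts of the same library and so does not depend on scaling. Among 27 member duplexes of an annotated mature strand and its star with at least 20 counts, which come from 24 loci since 3 loci (miR447a, miR829 and miR863) give 2 each, the mature strand held over 50% of counts in 26 and over 90% in 20, with a median of 95.6%. In 9 of them the star interval had 0 counts. That does not always mean an unused arm: for miR863-3p and miR830-3p the other arm was counted at an annotated mature interval shifted by a base or 2, with 19 and 5 counts. The other annotated arm also had counts for miR861-3p (1), miR844-3p (1) and miR865-5p (2). Both arms of miR863 thus stand among the 20 over 90%, so these shares depend in part on the star intervals listed. The same median was 99.3% over 113 duplexes outside the set, of which 104 had a mature share over 50%. The exception among the members was miR853, with 4 counts against 79 for miR853-star, a mature share of 4.82% (95% exact binomial interval 1.33% to 11.9%). The star had 25 counts in parg1-1 with flg22, 15 in parg1-1 untreated, 8 in parp1parp2 with flg22, 5 in parp1parp2 untreated, 16 in WT with flg22 and 10 in WT untreated. The mature strand had 3 counts in parp1parp2 untreated, 1 in WT untreated and 0 elsewhere, so the star led in all 6 libraries.

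A further 3 duplexes used both strands to a like extent when the libraries were pooled. Over all libraries the mature share was 52.0% in miR824 (95% exact binomial interval 50.1% to 53.9%), 57.0% in miR840 (47.4% to 66.3%) and 58.6% in miR779.2 (51.8% to 65.1%). These intervals do not cover the spread between libraries. Single libraries ran from 36.9% to 60.9% in miR824 and from 41.7% to 73.7% in miR840. For miR779.2 they ran from 37.2% (23.0% to 53.3%) in parg1-1 with flg22 to 75.9% (56.5% to 89.7%) in parp1parp2 with flg22. miR840, a 22-base miRNA which lies in an untranslated exon of AT2G02750 and is known to target the 3′ end of WHY3, had 65 counts on the mature strand and 49 on the star. For duplexes named 5p and 3p, miR861-5p held 1.54% and miR837-5p 8.08% of the counts, so the 3p arm led in both, while miR833a-5p held 41.7%. Set against each other in the same way, miR863-5p held 36.5% (19 counts against 33 for miR863-3p) and miR830-5p 9.09%.

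The miR824 share differed between genotypes. The mature strand held 36.9% of the hairpin's counts in parg1-1 with flg22 (95% exact binomial interval 32.2% to 41.8%) and 40.6% in parg1-1 untreated (36.1% to 45.2%). In parp1parp2 it held 55.5% with flg22 (50.6% to 60.4%) and 57.6% untreated (52.6% to 62.4%), and in WT 60.9% with flg22 (56.6% to 65.0%) and 58.5% untreated (53.9% to 62.9%). Both intervals of parg1-1 lay below the other 4, which overlapped one another. The star was thus the more abundant strand in parg1-1 and the mature strand in the other genotypes. Of the 51 hairpins in the series with at least 100 counts, 20 of them on each strand, 2 (3.92%) had a share in parg1-1 clear of WT in both treatments, miR824 and miR171a, which is not a member. In parp1parp2 it was 1 of 51 (1.96%), and not a member. The other 5 member hairpins that met these minimums, miR822, miR846, miR840, miR779.2 and miR847, were not clear of WT in both treatments. This comparison was chosen after the miR824 values were seen, has no replicate, and carries counting error only. Part of the interval lies opposite a coding exon, and it is not known here whether the counting used strand.

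**Figure D4:**
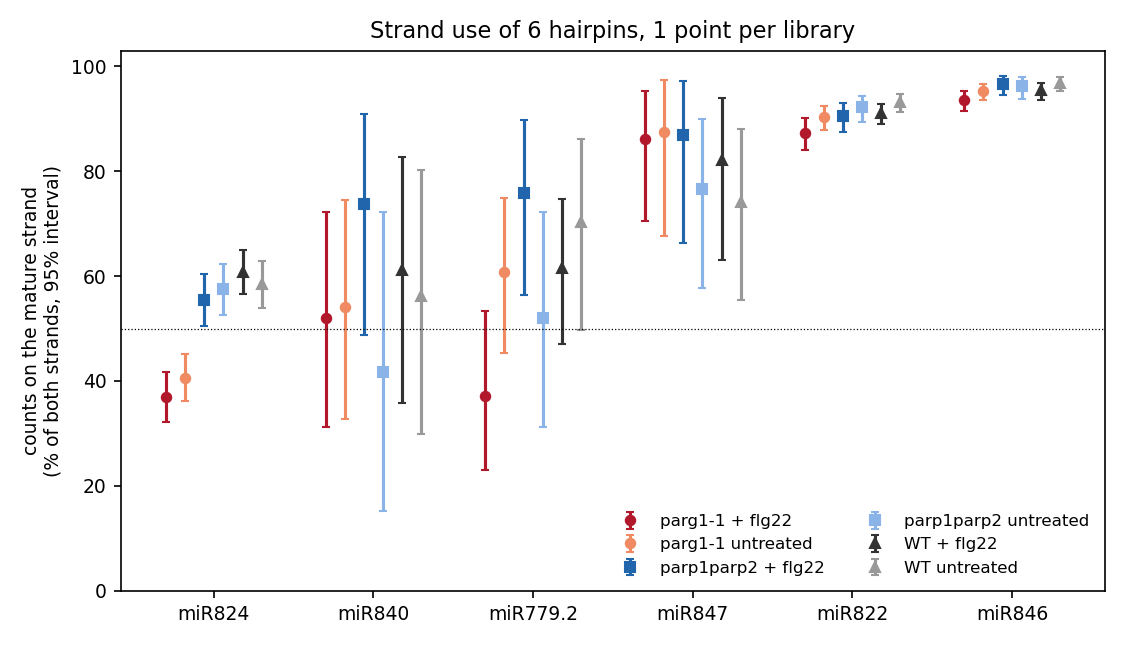
Share of a hairpin's counts on the mature strand (percent, vertical axis) for 6 member hairpins, 1 point per library with its 95% exact binomial interval, parg1-1 left, parp1parp2 in the middle and WT right within each hairpin; the dotted line marks 50%. For miR824 the parg1-1 libraries stand at 36.9% and 40.6%, below the 4 others at 55.5% to 60.9%, while intervals overlap for miR840 and miR847.

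For parp1parp2 against WT, 0 of 30 members were called, against 0.535% of all intervals, with 1 member at an unadjusted p under 0.05 in edgeR (9.09% of all intervals) and 0 called by DESeq2 (0.535%). That member was miR844-3p, from an intron of AT2G23348, whose annotated target is a protein kinase. It had 27.8 scaled CPM in parg1-1 with flg22 and 32.5 in parg1-1 untreated, 56.7 in parp1parp2 with flg22 and 55.2 in parp1parp2 untreated, and 24.0 in WT with flg22 and 28.2 in WT untreated. Both parp1parp2 libraries were the highest, on 8 to 16 counts per library, with a log2 fold change of 1.09 ± 0.48 (edgeR adjusted p = 0.530). The median of the 30 was -0.13, against -0.08 over all intervals. It lay between -0.22 and -0.011 on leaving out 1 library, and was 0.0073 with identical intervals counted once. Over all intervals the median lay between -0.11 and 0.025 on leaving out 1 library, and was 0.055 with identical intervals counted once.

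Set directly against parg1-1, parp1parp2 had 0 of 30 members called, against 1.07% of all intervals, with 5 members at an unadjusted p under 0.05 in edgeR (15.5% of all intervals) and 0 called by DESeq2 (5.35%). With identical intervals counted once, miR866-3p and miR846-star were called, against 9.56% of intervals, and with DESeq2 size factors miR866-3p, against 4.81%. The smallest p was that of miR866-3p, whose log2 fold change was -1.37 ± 0.34 (edgeR adjusted p = 0.105), followed by miR846-star. miR447a-3p had -0.93 ± 0.29 (edgeR adjusted p = 0.143) and miR824 0.75 ± 0.30 (0.237). This comparison shares its libraries with those of each mutant against WT.

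No member responded to flg22 by the test. Over the genotypes together 0 of 30 members were called, against 0.0% of all intervals, with 0 members at an unadjusted p under 0.05 in edgeR (0.535% of all intervals) and 0 called by DESeq2 (0.0%). The smallest p values belonged to miR781a and miR866-3p. miR781b has the sequence of miR781a and the same 308 counts, so these cannot be assigned to either locus. miR781a had 142 scaled CPM with flg22 and 195 untreated in parg1-1, 141.7 and 224 in parp1parp2, and 132 and 144 in WT. The flg22 library was lower in all 3 genotypes, with a log2 fold change of -0.41 ± 0.25 (edgeR adjusted p = 0.996). miR866-3p was likewise lower with flg22 in all 3, by -0.45 ± 0.28 (edgeR adjusted p = 0.996). The median of the 30 was -0.07, against -0.05 over all intervals, and its sign was not stable: it was 0.14 without WT with flg22, 0.068 without untreated WT and -0.21 without untreated parp1parp2. Over all intervals the median was 0.052, -0.0092 and -0.12 in these fits, so it moved in the same directions.

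The model was then given an extra term that lets 1 mutant respond to flg22 unlike the other genotypes, which leaves 1 residual degree of freedom. For parg1-1, 0 of 30 members were called, against 0.0% of all intervals, with 0 members at an unadjusted p under 0.05 in edgeR (1.07% of all intervals) and 0 called by DESeq2 (0.0%). miR843 (1.67 ± 0.75) and miR823 (1.22 ± 0.74) had the smallest p values, each with an edgeR adjusted p of 1. Their log2 ratios of flg22 to untreated in single libraries were 0.97 and 1.28 in parg1-1, -0.70 and -0.14 in parp1parp2, and -0.70 and 0.24 in WT, with 95% intervals including 0 outside parg1-1. For parp1parp2, 0 of 30 members were called, against 5.88% of all intervals, with 1 member at an unadjusted p under 0.05 in edgeR (11.8% of all intervals) and 0 called by DESeq2 (1.07%). That member was miR447a.2-3p, with 1.17 ± 0.44 (edgeR adjusted p = 0.1197). Its log2 ratio of flg22 to untreated was -0.49 in parg1-1 (95% interval -0.86 to -0.12), 0.73 in parp1parp2 (0.26 to 1.21) and -0.40 in WT (-0.77 to -0.03). miR848 (-2.79 ± 1.52, edgeR adjusted p = 0.482) rested on 1 count in parp1parp2 with flg22 and 10 in parp1parp2 untreated.

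By role, 0 tested members were called in any comparison, where 0.0% to 10.7% of all intervals were, in the 5 lists of families with known targets or processing: chromatin (1 tested), lectins (3), DCL4-dependent (3), transcription factors, signalling or miRNA machinery (5), and metabolism and F-box proteins (3). Under other settings miR846-star of the lectin list was called for parp1parp2 against parg1-1 with identical intervals counted once (edgeR adjusted p = 0.0418). The call of miR824 for parg1-1 changed without the untreated parp1parp2 library, as given above. In the lectin list the 3 tested strands had log2 fold changes for parp1parp2 against WT of -0.64 to -0.39 with a median of -0.50, beside -0.08 over all intervals. Their SE ran from 0.31 to 0.62, and none passed (edgeR adjusted p = 0.972 for each). They come from 1 locus and are not independent. Single-library log2 ratios for miR846, miR842 and miR846-star were 0.07, -0.12 and -0.39 with flg22, and -0.87, -1.17 and -0.62 untreated. The regulator list spanned -0.78 to 0.77 for parg1-1 against WT, from miR824 to miR840-star. Within it miR847, which targets the auxin repressor IAA28, had 55.3 to 95.8 scaled CPM over the 6 libraries and a log2 fold change of 0.23 ± 0.38.

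miR829.1 is one of 3 detected mature members of 24 bases and shares sequence with a miRNA outside the set, miR845a, which was far lower in both mutants. Over 20 aligned bases the sequences differ at 2, with 13 identical bases in a row. miR829.1 had 108.1 scaled CPM in parg1-1 with flg22 and 109 in parg1-1 untreated, 109 in parp1parp2 with flg22 and 79.3 in parp1parp2 untreated, and 101 in WT with flg22 and 66.9 in WT untreated. miR845a had 365 scaled CPM in parg1-1 with flg22 and 343 in parg1-1 untreated, 121 in parp1parp2 with flg22 and 155 in parp1parp2 untreated, and 2141 in WT with flg22 and 1779 in WT untreated. The genotypes overlapped for miR829.1 and were wide apart for miR845a: log2 fold changes were 0.39 in parg1-1 and 0.16 in parp1parp2 for miR829.1, and -2.47 and -3.81 for miR845a.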

How the data were processed

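The authors deposited whole-number read counts for each of the 679 intervals. Total RNA (TRIzol) was size-selected on a gel, made into NEBNext small RNA libraries and sequenced in a common lane, per the labels. Tools named in the submitters' processing notes are Bowtie 0.12.8 and bedtools, with the TAIR10 build, and their role or order is not stated. Not given in the sources used here: how reads were assigned. Equal sequences had equal counts at all their loci.

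Counts were fitted with edgeR 4.0.16 (TMM scaling, glmQLFTest, two-sided, with R 4.3.3 and limma 3.58.1). A run on simulated data used a common dispersion and no flg22 effect. It cannot show how the fit does where real libraries depart from the additive model. Library totals were 330286, 350874, 247508, 278906, 408805 and 284814 in parg1-1 with flg22, parg1-1, parp1parp2 with flg22, parp1parp2, WT with flg22 and WT. The additive model had 2 residual degrees of freedom and a biological coefficient of variation of 22.8%. Ratios of single libraries carry exact conditional binomial 95% intervals (SciPy 1.17.1), and a member was called apart from a 2-fold ratio up, where the higher library had 50 counts or more and the interval left out equality.

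Alternatives were DESeq2 1.42.0, its size factors, other filters, identical intervals once, and each library left out. Members, lists and tests were chosen with earlier results of these data known. Values are given for the 5 members with most counts, those called or apart, the 2 with the smallest p per comparison, tested members of the role lists, and the 3 mature and star duplexes with the lowest mature share. miR779.2, miR863, miR830, miR447a-3p and miR824 in the comparison of the mutants, miR829.1, the first bases and counts by distinct sequence were described after their values were seen. Nuclear chromosome lengths of TAIR10.1 equal those of TAIR10, and all 105 mature intervals coincide with annotated mature miRNAs.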

Additional observations from a re-analysis of the deposited data

How the results depend on the processing

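For parg1-1 against WT, the number of members called (1) was 0 with DESeq2 and 0 with a filter of 50 counts. It also varied on leaving out 1 library, where the log2 fold change of miR866-3p ran from 1.05 to 1.57. For parp1parp2 against parg1-1 (0) the number called was 1 with DESeq2 size factors and 2 with identical intervals counted once. There too it varied on leaving out 1 library, with miR866-3p between -1.68 and -1.05 in log2 fold change. The log2 fold change of miR866-3p in parp1parp2 against WT, -0.11 and not called, changed sign to 0.049 with identical intervals counted once. In that setting the median over all intervals went from -0.083 to 0.055. On leaving out 1 library the miR866-3p value ran from -0.30 to 0.20. The cause of these changes was not tested. Members seen, merged by identical counts, fell from 79 to 52 where at least 3 counts in 1 library were required. Members tested fell from 30 to 10 with at least 50 counts in 2 libraries. Both fell by construction. Pairs with a member at least 2-fold apart (1) became 2 with DESeq2 size factors and 2 with identical intervals counted once, miR866-3p in the untreated pair being added. For the miR824 strand share in parg1-1, 8 alternatives were added after seeing the data. They leave out libraries or change a minimum of counts that miR824 far exceeds. It therefore stayed clear of WT by construction, and they do not test the difference. The hairpins apart in the whole series numbered 2 to 14 (14 of 51 with the flg22 libraries alone). The other 52 values of such counts over these settings lay within 1.5 times those reported. Medians over the tested members moved in 19 cases, and for flg22 and parp1parp2 against WT, as for the response of parg1-1 with the 50-count filter (0.050), the sign changed. Replicates could not be paired, because the labels give no replicate numbers and each group holds 1 library. The additive model does set flg22 against untreated libraries within each genotype. Since 10 members had at least 50 counts in 2 libraries, the values of all others rest on few reads.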
